A study of Rattus norvegicus with 14 samples.

Results

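Tiles with lasting methylation gain were stretches of 1000 bp of the rat genome whose CpG methylation in oesophageal tissue lay well above the level of unoperated controls both 1 day and 1 week after repair with a silk graft. They were chosen by their measured values. A tile entered when the day 1 mean and the week 1 mean each lay at least 20 percentage points above the control mean and every operated library lay above every control library. Of 14380 tiles tested on chromosomes 1 to 20, 604 (4.2%) met the rule and are called gain tiles here. Tiles that met the mirrored rule, with methylation lower at both times, numbered 239 (1.66%) and are called loss tiles.

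The methylation of genomic DNA was measured by reduced-representation bisulfite sequencing, in which an enzyme that cuts at CCGG selects CpG-rich fragments and bisulfite separates methylated from unmethylated cytosines. All samples were from male rats aged 8 to 9 weeks. The 4 non-surgical controls (NSC) gave full-thickness oesophagus. At day 1, 5 samples of host tissue were punched from within 2 mm of the edge of the defect, which had been repaired with an acellular bi-layer silk fibroin scaffold. At week 1 (day 7), new tissue was taken from the graft area itself, and 4 of the 5 samples were analysed here. Site of sampling, surgery and time therefore differ together between the groups and cannot be told apart. The tissue is a mix of cell types, and a change in that mix and a change of methylation within cells cannot be told apart either. The tissue was not checked against cell type markers, because gene annotation of the genome build was not used here.

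CpG methylation is a covalent mark on cytosine that is copied to the new strand when DNA is replicated, by the maintenance methyltransferase Dnmt1. Dnmt3a and Dnmt3b add it at new sites, and Tet enzymes start its removal. Most CpGs of mammalian tissue are methylated, whereas dense CpG islands at promoters mostly are not, and the sites in between, often at enhancers, differ from one cell type to another.

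In the gain tiles the median of the NSC means was 46.8%, with quartiles of 30.9% and 59.7%. The median of the day 1 means was 81.7% and that of the week 1 means was 80.3%. Over all tested tiles the same medians were 76.1% in NSC, 85.1% at day 1 and 82.0% at week 1. Gain tiles thus lay below the typical tile in controls and close to it in operated tissue. The rule set this direction, and the operated groups share their NSC libraries, so the differences are given as a description. The median difference from NSC was 31.2 points at day 1 (range 20.03 to 69.1) and 29.3 points at week 1 (range 20.05 to 66.4), against 2.91 and 1.39 points over all tested tiles.

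The selection can be read against counts over all tiles. Both differences reached 20 points in 825 tiles (5.74% of those tested), of which 221 were left out because operated and control libraries overlapped. Every operated library lay above every NSC library in 1477 tiles (10.3%). With edgeR's quasi-likelihood test and Benjamini-Hochberg adjustment over all tiles, 2144 tiles (14.9%) were called higher at day 1 than in NSC and 1123 (7.81%) at week 1. Of the gain tiles, 574 were among the former and 500 among the latter. These contrasts chose the tiles, and nothing is read from the overlap.

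By library, the median methylation of the gain tiles was 47.2%, 47.7%, 46.1% and 45.8% in NSC replicates 1 to 4. At day 1 it was 85.6%, 81.4%, 79.9%, 84.6% and 76.2% in replicates 1 to 5. At week 1 it was 79.1%, 81.8%, 76.7% and 82.1% in replicates 1 to 4. The control libraries lay within 2 points of each other, and the operated libraries spread over a wider range, with day 1 replicate 5 and week 1 replicate 3 at its low end. Day 1 replicate 2 was the shallowest library, with 9007170 reads summed over cytosines against 10804225 to 47558937 in the others, and had a value in 63 gain tiles against 519 to 603. The plot of gain tiles by library shows these medians.

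**Figure D1:**
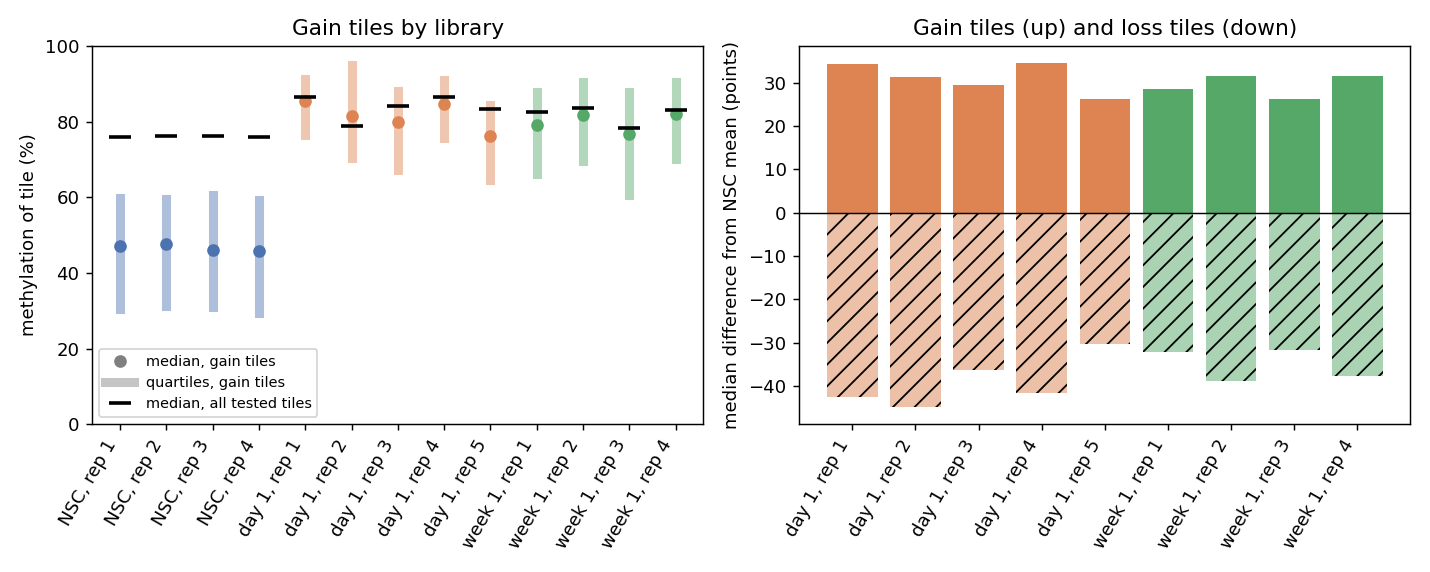
Left, methylation of the gain tiles in percent for each of the 13 libraries, with points for the median, pale bars from the lower to the upper quartile and black dashes for the median of all tested tiles. Right, the median difference from the NSC mean in points for each operated library, upward for gain tiles (plain bars) and downward for loss tiles (hatched bars); day 1 replicate 5 is among the smallest both ways.

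The operated libraries were not equally far from the controls. Among the 519 gain tiles with a value in day 1 replicates 1, 3, 4 and 5, replicate 5 was the lowest of these in 271 (52.2%), against 30.3% of all tiles. Replicate 1 was the highest in 202 (38.9%), against 27.8% of all tiles. The mirrored order held in loss tiles. Day 1 replicate 5 was the highest in 114 of 201 loss tiles (56.7%, against 15.8% of all tiles) and replicate 1 the lowest in 83 (41.3%, against 16.6%). The median difference from the NSC mean in gain and loss tiles was 26.3 and -30.4 points in replicate 5 and 34.2 and -42.4 points in replicate 1. Day 1 libraries with larger differences upward thus tended to have larger differences downward. At week 1 replicate 3 was the lowest of the 4 libraries in 176 of 401 gain tiles (43.9%, against 33.4% of all tiles), and replicate 2 the highest in 154 (38.4%, against 28.4%). The libraries share DNA preparation and tile set, and these orders carry no test.

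Because the rule used every library, each was next left out in turn, tiles were chosen again from the other 12, and the left-out library was read in them. Week 1 replicate 4 lay above every NSC library in 264 of 270 gain tiles chosen without it (97.8%), against 43.1% of all tiles. Week 1 replicates 1 and 2 did so in 289 of 300 (96.3%, against 39.3%) and in 286 of 298 (96.0%, against 43.8%). Week 1 replicate 3 did so in 337 of 391 (86.2%, against 35.8%), the lowest share of any operated library. At week 1 the left-out library thus lay on the gain side in 86.2% or more of the tiles, whichever library it was.

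Day 1 replicates 1 and 4 lay above every NSC library in 416 of 419 (99.3%, against 50.5%) and 438 of 449 gain tiles (97.6%, against 49.7%). Day 1 replicates 3 and 5 did so in 483 of 508 (95.1%, against 46.0%) and 457 of 489 (93.5%, against 41.3%). The shallow replicate 2 did so in 59 of 65 (90.8%, against 47.2%). In all 5 day 1 libraries the share was above 90%. Left-out controls gave the same picture from below. NSC replicates 1 and 2 lay below every operated library in 556 of 591 (94.1%, against 26.2%) and 543 of 601 gain tiles (90.3%, against 25.3%). NSC replicates 3 and 4 did so in 539 of 595 (90.6%, against 24.9%) and 561 of 631 (88.9%, against 25.7%).

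The size of the gap was read in the left-out libraries as well. The median gap between the left-out library and the NSC mean ran from 23.2 points in week 1 replicate 3 to 34.1 points in day 1 replicate 1, against 0.845 to 3.69 points over all tiles in the 9 operated libraries. The share of gain tiles in which the gap reached 20 points ran from 58.8% to 94.7% in the same 2 libraries. Part of the tiles that passed the rule on the other libraries would therefore not have passed it on week 1 replicate 3. The NSC mean stays in every such comparison. For a left-out operated library, the same NSC libraries chose the tiles and set the gap, so a low NSC reading carries over. The tiles used for comparison are of any start level. All tested tiles with an NSC mean from 40% to 50% had median differences of 18.9 points at day 1 and 13.5 at week 1. The shares and gaps in left-out libraries are therefore a description only.

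**Figure D2:**
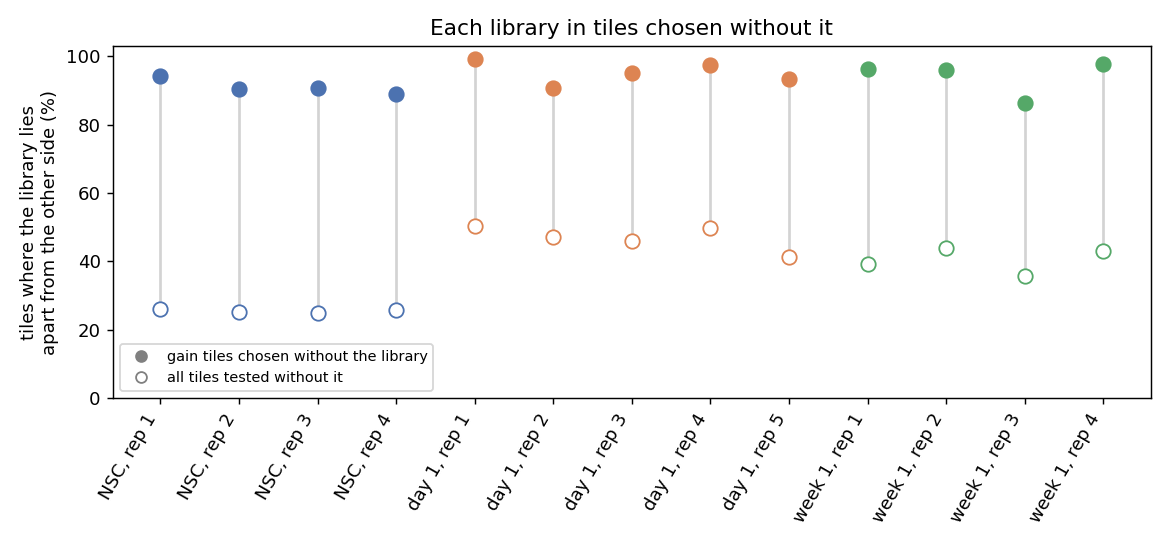
Share of tiles in percent in which a library that took no part in choosing the tiles lay on the outer side of every library of the other kind (operated above NSC, or NSC below operated). Filled points are gain tiles chosen without that library and open points all tiles tested without it, of any start level. Filled points lie at 86.2% or more and open points at 50.5% or less.

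A further reading came from cytosines with too few reads for the rule. In 541 gain tiles day 1 replicate 2 had no value at 10 reads, and in 154 of these it had cytosines with 5 to 9 reads, which the rule did not use. There its median methylation was 79.7%, with the other day 1 libraries at 79.7% and NSC at 45.1%. It lay above every NSC library in 117 of the 154 (76.0%), against 1462 of 3758 tested tiles (38.9%). Those tested tiles are of any start level, with a median NSC level of 71.9%. The same NSC libraries chose the gain tiles, so a low NSC reading carries over here too, and the shares are a description only. In loss tiles the same low-read cytosines had a median of 14.3%, against 71.2% in NSC, and lay above every NSC library in 4.0% of 75 tiles. The median number of reads behind these values was 13 a tile in the gain tiles, so a single tile is known only coarsely.

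The gain tile with the largest smaller difference was chr9:60897001-60898000, with 3 cytosines. Its methylation was 16.0%, 27.2%, 31.5% and 20.9% in NSC. It was 86.6%, 86.0%, 87.8% and 90.4% in day 1 replicates 1, 3, 4 and 5, and 87.0%, 80%, 94.7% and 89.6% at week 1. The operated libraries lay in a narrow band far above all 4 controls (NSC 23.9% ± 6.82, SD, n = 4; day 1 87.7% ± 1.95, n = 4; week 1 87.8% ± 6.13, n = 4). The 3 cytosines had NSC means of 18.96% to 33.3% and means of 83.2% or more at both times. The depth was 35 to 151 reads per library, where a read that covers several cytosines counts at each.

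The tile chr13:47198001-47199000 was alike, with NSC libraries of 25%, 27.5%, 34.4% and 7.3%. Day 1 libraries had 90.8%, 92.1%, 84.8% and 76.9%, and week 1 libraries 78.6%, 83.7%, 90% and 76.5%. Operated libraries overlapped each other and were separated from the controls by over 40 points. At chr20:19480001-19481000 the controls were low and scattered, at 8.6%, 1.1%, 17.6% and 21.7%. At day 1 the libraries had 84.1%, 73.1%, 81.3% and 55.9%, and week 1 libraries 69.4%, 61.0%, 75% and 77.8%. Day 1 replicate 5 was the lowest operated library there. At chr1:196673001-196674000 the 3 NSC libraries with a value had 14.8%, 15.2% and 21.3%, the day 1 libraries 85.5%, 60%, 91.4% and 64.1%, and the week 1 libraries 89.3%, 85.4% and 64.8%.

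The tile chr5:130772001-130773000 started almost unmethylated and had the widest week 1 spread of all gain tiles. NSC libraries had 1.5%, 3.7%, 7.6% and 4.7%. Day 1 libraries had 77.1%, 56.8%, 76.8% and 42.1%, and week 1 libraries 48.1%, 91.0%, 36.0% and 81.2%. The controls were within 7 points of each other, and the week 1 libraries formed 1 pair above 80% and 1 pair below 50% (64.1% ± 26.3, SD, n = 4; NSC 4.36% ± 2.54, n = 4; day 1 63.2% ± 17.0, n = 4). Its 6 cytosines lay between positions 130772751 and 130772867. Each of them had an NSC mean from 3.24% to 5.40% and means of 61.5% or more at both times. Depth was 67 to 268 reads per library, with 67 in week 1 replicate 2 and 89 in week 1 replicate 3. A read that covers several of the 6 cytosines counts at each, so they are not separate readings.

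The 3 tiles with the most reads in their shallowest library had 12 or 13 cytosines. A read that covers several cytosines counts at each, so tiles with many cytosines rank high and the number of separate reads is smaller. At chr20:11996001-11997000, with 13 cytosines and 465 to 1322 reads per library, NSC libraries had 23.9%, 17.9%, 19.9% and 16.3%. At day 1 values were 85.7%, 64.4%, 74.0% and 54.2%, and the 3 week 1 libraries with a value 59.0%, 66.1% and 76.1%. All 13 cytosines, spread over positions 11996193 to 11996557, were higher at both times. Their NSC means ran from 8.10% to 48.98% their day 1 means from 61.8% to 85.6% and their week 1 means from 32.9% to 84.4%, the lowest at position 11996439. The spread between operated libraries (SD 13.4 points at day 1, n = 4, and 8.59 at week 1, n = 3) was wider than in NSC (3.29, n = 4).

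At chr15:7787001-7788000, with 12 cytosines and 296 to 1797 reads per library, NSC libraries had 53.0%, 55.2%, 58.7% and 53.8%. Day 1 libraries had 89.1%, 78.9%, 89.7% and 80.1%, and week 1 libraries 90.8%, 96.9%, 87.8% and 95.1%. All 12 cytosines were higher at both times. The week 1 mean lay 8.20 points above the day 1 mean, but the difference did not pass the test over all tiles (edgeR, Benjamini-Hochberg adjusted p = 0.434).

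At chr10:54121001-54122000, with 12 cytosines, every library had a value, from 238 reads in day 1 replicate 2 to 4592 reads. NSC libraries had 35.3%, 38.6%, 34.1% and 35.4%, and day 1 libraries 88.6%, 58.0%, 72.2%, 76.4% and 62.9%. Week 1 libraries had 56.4%, 61.7%, 56.4% and 82.5%. The controls agreed within 5 points, and in the operated groups 1 library each stood high, day 1 replicate 1 and week 1 replicate 4. Its cytosines were not alike. Those at positions 54121314 to 54121659 were 21 to 46 points higher at day 1, the one at 54121665 had 78.8% in NSC, 84.8% at day 1 and 90.6% at week 1, and the one at 54121668 had 88.2% in NSC, 72.1% at day 1 and 86.7% at week 1. The one at 54121668 had no value in 3 operated libraries.

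**Figure D3:**
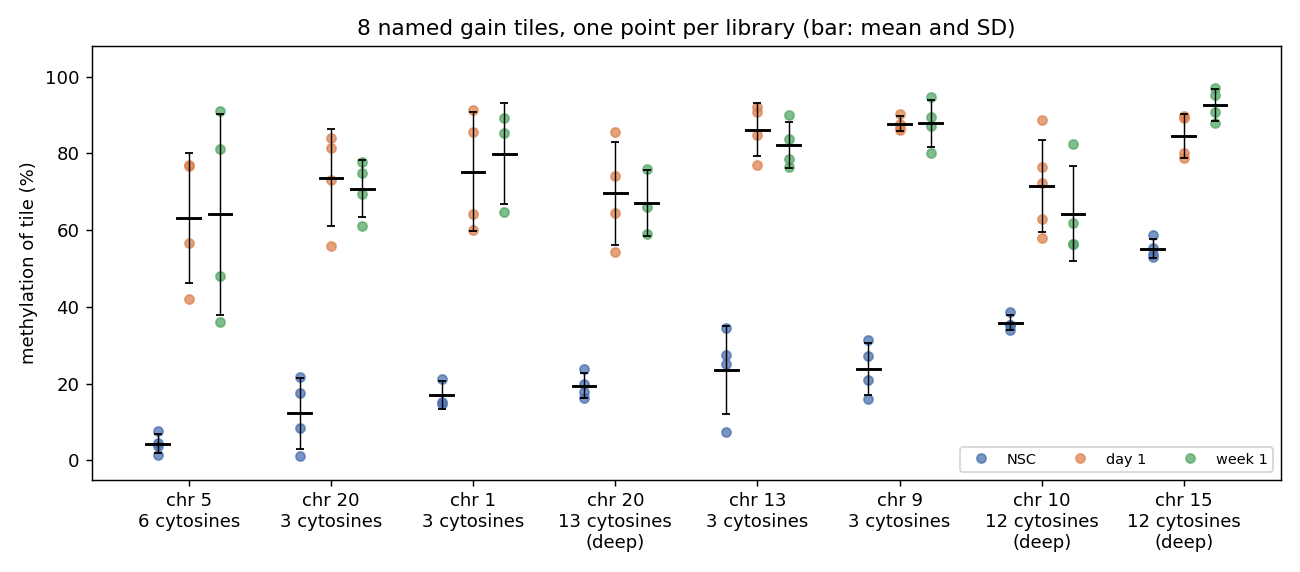
Methylation in percent of 8 gain tiles, ordered by NSC mean, with 1 point for each library and a bar for the group mean with its SD: the 5 tiles with the largest smaller difference and the 3 read most deeply. In all 8 every operated library lies above every NSC library, as the rule demands, and the operated libraries of the chromosome 5 tile are the most scattered.

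The start level, which here means the NSC mean, bounds how far above it a tile can lie. The rule bars any tile with an NSC mean above 80%. The share of tested tiles that were gain tiles was 0.795% at NSC means below 10%, 13.97% from 10% to 20%, 26.5% from 20% to 30% and 22.6% from 40% to 50%. It was 10.5% from 60% to 70% and 0.988% from 70% to 80%. Gain tiles were therefore tiles of intermediate start level. Of the 604, 441 (73.0%) had an NSC mean from 30% to 70%, against 19.1% of all tested tiles. An NSC mean below 20% was found in 66 (10.9%, against 21.4%) and one above 60% in 148 (24.5%, against 65.9%).

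The level in operated tissue differed with the start level, as the rule partly fixes, since a tile that starts above 60% must have means of 80% or more to enter. In the 233 gain tiles that started at 40% to 60% the median of the means was 82.7% at day 1 and 81.3% at week 1. In the 148 that started above 60% it was 89.8% and 90.4%. In the 157 that started at 20% to 40% it was 72.7% and 67.1%, in the 44 at 10% to 20% it was 57.4% and 52.1%, and in the 22 below 10% it was 44.0% and 36.2%. Both operated means exceeded 80% in 273 gain tiles (45.2%, against 51.2% of all tested tiles) and both stayed below 50% in 26 (4.30%, against 25.9%). Differences of at least 30 points at both times were reached by 245 tiles, 40 points by 76 and 50 points by 23.

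**Figure D4:**
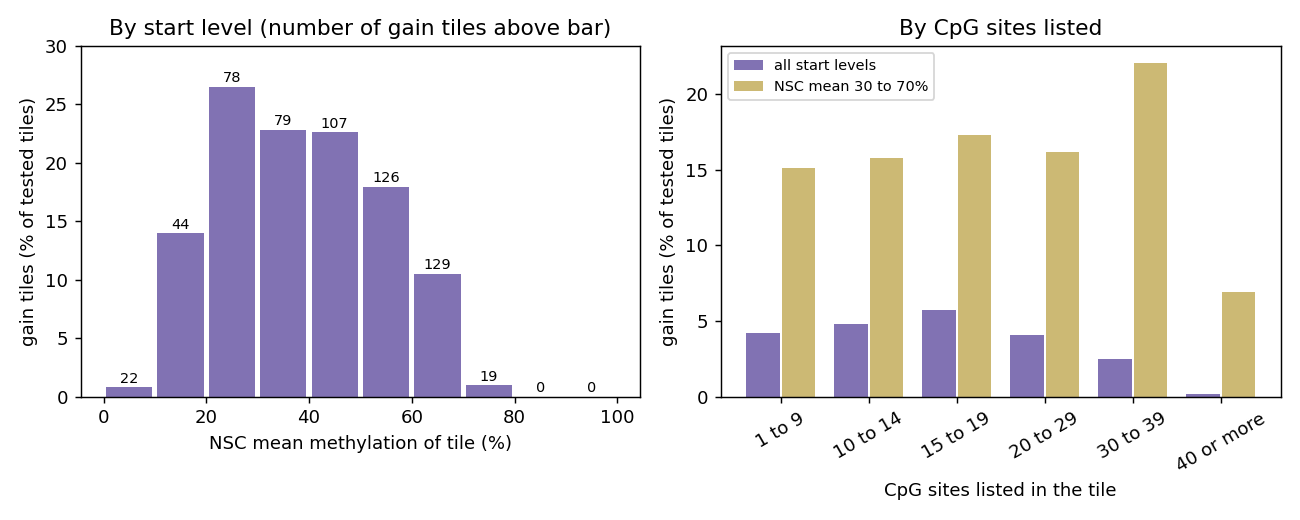
Left, gain tiles in percent of tested tiles by NSC mean methylation in steps of 10 points, with the number of gain tiles above each bar. Right, gain tiles in percent of tested tiles by the number of CpG sites listed in the tile, for all start levels and for tiles with an NSC mean from 30% to 70%; with all start levels the share is 0.195% at 40 sites or more and 4.2% at 1 to 9.

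Tiles that were unmethylated in controls were rare among the gain tiles, and the 3 lowest lay on chromosome 1. At chr1:205883001-205884000, with 5 cytosines, no NSC library had a methylated read, over 589 readings of a cytosine (109 to 166 per library). Since a read can cover several of the 5 cytosines, the number of separate reads is smaller. Over the reads at the best-covered cytosine of each library, a count of 0 allows up to 3 reads, a share of 2.13%, which covers counting error only. At day 1 methylation was 29.7%, 23.8%, 15.3% and 18.7%, and week 1 libraries 16.7%, 30.5%, 19.4% and 22.03%. All 8 operated libraries with a value had methylated reads, at 12 to 202 reads per library over all groups. The 16.7% of week 1 replicate 1 rested on 12 reads at 1 of the 5 cytosines and is known only coarsely. At chr1:242485001-242486000 NSC libraries had 2.9%, 0%, 1.4% and 2.6%, the 3 day 1 libraries with a value 37.7%, 25.5% and 66.7%, and the 3 at week 1 36.7%, 13.3% and 41.1%.

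The tile chr1:199634001-199635000, with 9 cytosines, had 5.3%, 1.0%, 0.8% and 1.7% in NSC. Day 1 libraries had 31.2%, 41.7%, 30.7% and 19.9%, and week 1 libraries 26.7%, 23.2%, 15.3% and 36.7%. The tile that follows it, chr1:199635001-199636000, was a gain tile too, with 5.3%, 7.0%, 0.5% and 6.3% in NSC. There the day 1 libraries had 49.4%, 19.2%, 54.3% and 13.5%, and the week 1 libraries with a value 25%, 31.3% and 28.8%. Over both tiles the cytosines used ran from position 199634594 to 199635343. In both tiles the controls were at 7% or below and the operated libraries with a value at 13% or above. Day 1 replicate 2 had no value in either. Of the 22 gain tiles that started below 10%, 10 (45.5%) had 20 or more CpG sites listed, against 80.03% of the 2769 tested tiles of that start level.

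Gain tiles were of ordinary width and slightly poorer in CpG sites than the tested tiles. The median number of cytosines used was 4 in gain, loss and all tested tiles, and 3 cytosines, the smallest number allowed, were used in 262 gain tiles (43.4%, against 40.1%). The median span from the first to the last cytosine was 102.5 bp, against 101.5 bp over all tiles. The median number of CpG sites listed with at least 5 reads in any library was 13 in gain tiles and 14 in all tiles. The difference lay in the dense tail. At least 20 sites were listed in 123 gain tiles (20.4%, against 30.4%) and at least 40 in 2 (0.331%, against 7.15%).

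Among tiles with an NSC mean from 30% to 70% this slope with density was not seen below 40 sites. There the share of gain tiles was 15.1% at 1 to 9 listed sites, 15.8% at 10 to 14, 17.3% at 15 to 19 and 16.2% at 20 to 29. It was 22.1% at 30 to 39 sites, from 17 of 77 tiles, and 6.90% at 40 or more, from 2 of 29. Densely listed tiles of intermediate start level were few, so the last 2 shares rest on small numbers. Depth went with little change in the share, from 4.22% in the 25% of tiles with fewest NSC reads to 3.59% in the 25% with most.

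Tiles with many used cytosines were seldom gain tiles. Of the 1020 tested tiles with 10 or more, 13 (1.27%) were gain tiles, against 4.54% of those with 3, and they made up 2.15% of gain tiles against 7.09% of all tested tiles. The 3 gain tiles with the most cytosines are given here. The tile chr15:95038001-95039000 had 16 cytosines over positions 95038090 to 95038685, of which 14 were higher at both times. Its NSC libraries had 57.6%, 45.4%, 58.7% and 44.3%, its day 1 libraries 79.6%, 75.4%, 77.9% and 75.9%, and its week 1 libraries 75.8%, 85.6%, 77.2% and 80.3%. Here the controls fell into 1 pair near 58% and 1 pair near 45%, and the day 1 libraries were close together. At chr10:105886001-105887000, with 13 cytosines, the 3 NSC libraries with a value had 22.5%, 5.4% and 16.4%. At day 1 the libraries had 57.5%, 55%, 34.7% and 32.1%, and those at week 1 25.9%, 52.7% and 35.1%, so the lowest week 1 library lay within 4 points of the highest control. The third of these tiles is the deeply read one on chromosome 20 described above.

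Within a tile the cytosines mostly differed from NSC together. Of 2623 cytosines used in gain tiles, 2560 (97.6%) were higher than NSC at both times, against 42.0% of the cytosines in all tested tiles. A difference of 20 points at both times was reached by 1908 (72.7%, against 6.51%). In 549 of the 604 tiles (90.9%, against 17.3% of all tested tiles) every cytosine was higher at both times. The rule acts on the sum over the tile, so most cytosines had to share its direction, and nothing is read from these shares. CpGs read on both strands were found in 8 gain tiles and numbered 15. All 15 were higher at both times on both strands, against 371 of 1390 (26.7%) in all tested tiles, a direction that the rule also sets. Their differences had medians of 40.01 and 34.9 points at day 1 and week 1 on the plus strand and 34.9 and 39.2 points on the minus strand.

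Beyond the tile the difference was smaller. Cytosines outside a tile took no part in choosing that tile, but some lie in other gain tiles, so values without these are given as well. At 500 to 1000 bp from the tile centre the median difference was 15.1 points at day 1 and 10.2 at week 1, over 282 cytosines around 101 tiles, against 0.951 and 0 points around all tested tiles. Without the 31 of these cytosines that lie in other gain tiles it was 13.4 and 7.66 points, against 0.823 and 0 with the same cytosines left out. At 1000 to 2000 bp it was 4.49 and 2.46 points (100 cytosines around 45 tiles), against 1.43 and 0.0684. Without cytosines of gain tiles it was 4.12 and 1.52 points, against 1.33 and 0. At 2000 to 5000 bp it was 3.27 and 2.35 points, against 2.41 and 0.920, and at 5000 to 10000 bp 2.50 and 1.00, against 2.22 and 0.691. From 10000 to 50000 bp it was 2.63 and 1.29 points, against 2.35 and 0.895. The medians were largest in the tile itself and smaller in its near surroundings. The tile's own cytosines chose it and the outer ones did not, so this drop is partly set by the rule. No peak at the tile is read from it. Past 2000 bp they lay within 2 points of the background, whereas cytosines at least 20 points higher at both times remained more frequent, at 9.84%, 10.6% and 9.98% in the last 3 distance classes against 5.73%, 6.40% and 6.80%. Without cytosines of gain tiles these shares were 8.8%, 7.41% and 7.05%, against 4.64%, 5.03% and 5.28%. Around loss tiles the cytosines at 500 to 1000 bp lay lower, with medians of -5.55 and -6.55 points.

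**Figure D5:**
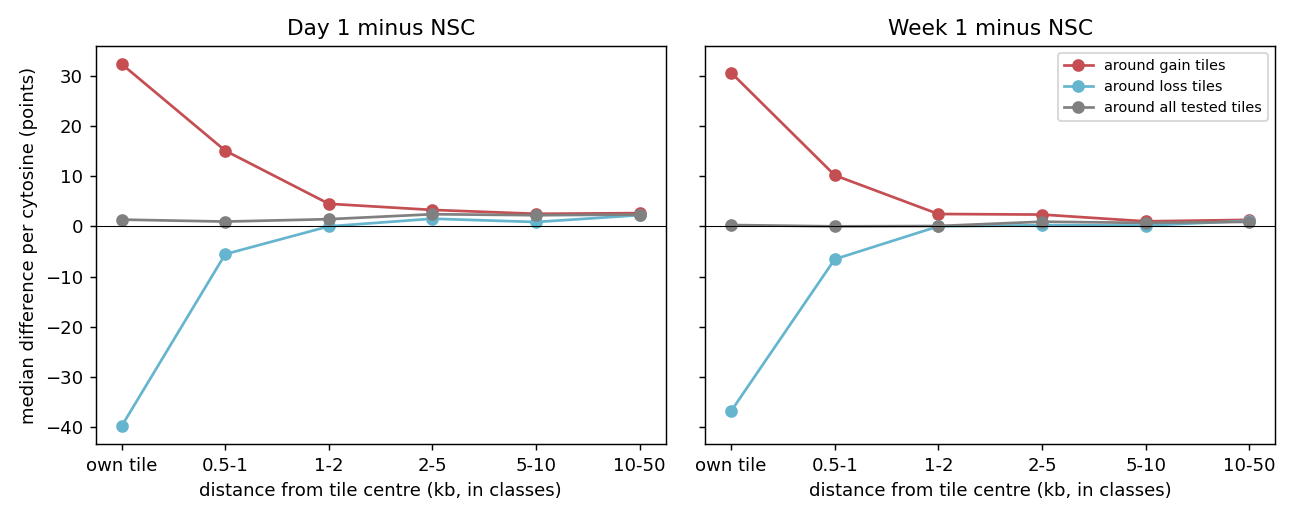
Median difference from NSC per cytosine in points at day 1 (left) and week 1 (right), by distance from the tile centre in classes of kb, cytosines of other gain tiles included, around gain tiles, loss tiles and all tested tiles. Around gain tiles the median is 32.3 and 30.6 points in the tile itself and 15.1 and 10.2 points at 0.5 to 1 kb. The tile's own cytosines chose it, so the drop outside it is partly set by the rule.

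Tested tiles directly beside a gain tile numbered 44. Of these 8 (18.2%) were gain tiles, against 2.65% of the tiles beside any tested tile, and none was a loss tile. The 8 are the members of 4 pairs, each pair counted from both sides. Both means were above NSC in 34 of the 44 (77.3%, against 50.4%), with median differences of 17.8 points at day 1 and 12.3 at week 1. Over the 36 that were not gain tiles themselves the medians were 14.01 and 7.98 points, with both means above NSC in 26 (72.2%, against 49.01%). Apart from the pair on chromosome 1, the adjacent gain tiles formed 3 further pairs, and no run was longer. On chromosome 7, tile chr7:128260001-128261000 had NSC, day 1 and week 1 means of 57.0%, 78.5% and 85.0%, and chr7:128261001-128262000 had 65.2%, 91.6% and 92.6%. On chromosome 12, tile chr12:35157001-35158000 had 68.4%, 93.3% and 93.8%, and chr12:35158001-35159000 had 51.8%, 82.5% and 83.3%. The other pair on chromosome 12 was chr12:36669001-36670000 with 42.5%, 71.9% and 72.3%, and chr12:36670001-36671000 with 41.2%, 69.0% and 61.7%. In these pairs day 1 replicate 5 stood apart at 74.3% in the tile from 35158001, and NSC replicate 2 at 44.2% in the tile from 36670001. The members of each pair had start levels within 17 points of each other and were higher together. A tile border can divide 1 stretch of cytosines, so the members of a pair need not be separate regions. On chromosome 7 the used cytosines of the first tile ended at 128260892 and those of the second began at 128261044. In the pair from 36669001 the first ended at 36669969 and the second began at 36670073.

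Gain tiles were otherwise scattered. They were found on all 20 autosomes, with a median of 672000 bp to the nearest other gain tile and 87 tiles (14.4%) within 100 kb of one. The median distance to the nearest loss tile was 2113500 bp. Chromosome 1 held the most, with 79 of 1534 tested tiles (5.15%). The share was highest on chromosome 20, with 40 of 581 (6.88%), followed by chromosome 10 with 56 of 955 (5.86%) and chromosome 12 with 35 of 668 (5.24%). It was lowest on chromosome 9, with 18 of 665 (2.71%), and chromosome 5, with 28 of 1006 (2.78%). In 5 equal parts of the chromosome, from the first base on, the share was 4.01%, 4.01%, 4.00%, 4.56% and 4.35%. Within 1 Mb of the first or last listed position it was 1.81% (6 of 331).

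The change from day 1 to week 1 is a difference that the rule limits but does not set. The median week 1 mean minus day 1 mean was -1.27 points in gain tiles, with a range from -30.3 to 22.5, and -0.885 points over all tested tiles. The week 1 mean lay above the day 1 mean in 244 gain tiles (40.4%), against 35.9% of all tested tiles. The means lay within 5 points of each other in 346 (57.3%, against 70.8% of all tested tiles) and within 10 points in 528 (87.4%, against 90.3%). Week 1 was lower by 10 points or more in 55 gain tiles (9.11%, against 7.29%) and higher by as much in 21 (3.48%, against 2.42%). Week 1 and day 1 libraries did not overlap in 26 gain tiles (4.30%), against 5.7% of all tested tiles.

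In the test of week 1 against day 1, edgeR's quasi-likelihood test called 0 of 604 gain tiles at an adjusted p below 0.05, against 0.0139% of all tiles (2 of 14380). The lowest adjusted p among gain tiles was 0.410. At an unadjusted p below 0.05 it marked 42 gain tiles (6.95%), against 8.37% of all tiles. At that threshold limma on percents marked 37 gain tiles (6.13%) and 9.63% of all tiles. After adjustment limma called 0 gain tiles, against 0.0278% of all tiles (4 of 14380). A difference that misses the threshold does not show that methylation was equal at both times.

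The largest difference downward from day 1 to week 1 was at chr8:106994001-106995000. NSC libraries had 5.1%, 23.0%, 13.2% and 17.8%, day 1 libraries 60.5%, 72.7%, 69.1% and 59.4%, and the 3 week 1 libraries with a value 24.1%, 37.9% and 43.4%. No week 1 library overlapped a day 1 library, and the lowest week 1 library lay just above the highest control. The week 1 mean was 30.3 points below that of day 1, which did not pass after adjustment (edgeR, Benjamini-Hochberg adjusted p = 0.434). The largest difference upward was at chr14:16571001-16572000, with 21.9%, 35.9%, 12.8% and 20.8% in NSC, 62.9%, 40.5%, 90% and 38.2% at day 1 and 69.4%, 88.9% and 82.8% at week 1. Day 1 and week 1 libraries overlapped there only through day 1 replicate 4, whose 90% rested on 10 reads at 1 of the 3 cytosines. Depth was 10 to 73 reads per library. The cytosine at 16571689 was not higher at day 1, with 25.3% in NSC, 22.6% at day 1 and 82.1% at week 1. The difference of 22.5 points between the week 1 and day 1 means did not pass (edgeR, Benjamini-Hochberg adjusted p = 0.547). The closest agreement among week 1 libraries was at chr17:18258001-18259000, with 91.8%, 91.2% and 91.3% (SD 0.313, n = 3), whereas day 1 libraries there had 86.0%, 66.7%, 92.1% and 66.2% and NSC 42.4%, 30.1%, 31.3% and 44.1%.

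By start level the median of this change differed, but a dependence on start level was not tested. In the 157 gain tiles that started at 20% to 40% the week 1 mean was below the day 1 mean in 107, with a median of -3.42 points. In the 148 that started above 60% it was below in 68, with a median of 0.221 points. There the rule asks for both means at 80% or more, which limits how far apart they can lie. The median was -2.09 points in gain tiles below 10%, -4.85 from 10% to 20% and -1.48 from 40% to 60%. Over all tested tiles, of any start level, the week 1 mean was below the day 1 mean in 61.5%. The medians by start level are small beside the spread between libraries of a single tile.

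The spread between libraries in gain tiles was alike in controls and operated groups. The median SD was 7.34 points in NSC, 7.18 at day 1 and 7.25 at week 1, against 3.83, 3.84 and 4.34 over all tested tiles. Loss tiles had 6.58, 9.34 and 8.72 points. Within start levels the 3 groups parted. Gain tiles that started below 10% had a median SD of 2.96 points in NSC, 11.97 at day 1 and 12.7 at week 1. Those that started above 60% had 7.71, 4.72 and 4.56. The spread was thus wide wherever methylation was intermediate, in controls as in operated tissue. Percentages vary most at intermediate levels, and tested tiles that started at 40% to 60% had median SDs of 7.94, 8.35 and 8.18 points, beside 7.45, 6.93 and 7.28 in the gain tiles among them. The condition on overlap left out 221 tiles, and a wide spread makes overlap more likely. The SDs of gain tiles are therefore limited by the rule in all 3 groups, and nothing is read from their lower values.

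The threshold divided tiles of like values. The gain tiles just inside it had smaller differences of 20.03 points at chr2:220083001-220084000 (NSC 73.3%, day 1 93.3%, week 1 96.4%), 20.05 at chr7:128294001-128295000 (36.7%, 57.1%, 56.8%) and 20.07 at chr6:104934001-104935000 (73.6%, 94.1%, 93.7%), where week 1 replicate 2 stood apart at 84.0%. The nearest tiles outside it that met the other condition had 19.97 points at chr13:38944001-38945000, 19.97 at chr6:43014001-43015000 and 19.96 at chr3:50765001-50766000 (69.2%, 91.1%, 89.1%). In all, 214 gain tiles had a smaller difference of 20 to 25 points, and 261 tiles without overlap had one of 15 to 20 points.

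The number of gain tiles depended on which libraries were read. Without week 1 replicates 1, 2, 3 and 4 in turn it was 342, 372, 481 and 281. Fewer tiles could then be tested, from 6733 to 9621 in place of 14380, and the share of these that were gain tiles was 4.45%, 3.87%, 5.33% and 4.17%. Without day 1 replicates 1 and 4 it was 424 and 462.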

How the data were processed

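Genomic DNA of rat oesophagus was cut with MspI, long fragments were removed with beads, and libraries were made from the bisulfite-converted DNA, per the labels' protocols. The submitters' processing notes name Trim Galore, FastQC, Bismark 0.23.0, methylKit 1.14.2 and the assembly mRatBN7.2, without roles. The deposited tables list CpG cytosines by strand, with a count of methylated reads, a count of total reads, and a percent. The authors' percent was left aside, and methylation in percent was computed here from the deposited counts, which carry no normalization.

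Of 14 samples 13 were analysed. A cytosine on chromosomes 1 to 20 was used when 3 or more libraries of every group had 10 or more reads there. Tiles of 1000 bp began at position 1, and those holding 3 or more used cytosines were tested (71273 cytosines). A library's value is its methylated reads divided by all its reads, over those cytosines of the tile at which it had 10 reads, and a library without such a cytosine has no value. The highest share of cytosines with equal counts in any 2 libraries was 2.69%, so no library was treated as a copy. Whether each sample is from an animal of its own is not given in the sources used here, so p-values speak only of the spread among these samples, perhaps technical. Replicate numbers follow accession order and pair no samples.

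Methylated and unmethylated counts were fitted for all tiles with edgeR 4.0.16 in R 4.3.3, with an effect for each library, group effects on the methylated count and a common dispersion. Calls were made at a Benjamini-Hochberg adjusted p below 0.05. limma 3.58.1 on percents was an alternative. Tables and plots were made with Python 3.11.15, pandas 2.3.3 and matplotlib 3.10.9. Other choices tried were the read minimum, the cytosine minimum, a coverage limit, thinning to 10 reads, the mean of cytosine percents, the tile width, the size of the difference, the condition on overlap and leaving out each library. Gene annotation of the assembly was not used here, so no genes, promoters or sequences are given.

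The members and lists were chosen with earlier results of these data known. Named tiles are the 5 with the largest smaller difference, the 3 with the most reads in their shallowest library, the 3 with the lowest NSC mean, the 3 just inside and the 3 just outside the threshold, the longest runs of neighbours, the largest fall and rise between the operated groups, the lowest and highest week 1 SD, and the 3 with the most cytosines. A part of the rule naming the tiles called between week 1 and day 1 named none.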

Additional observations from a re-analysis of the deposited data

Results flagged for a closer look

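In 76 groups of 4 or 5 libraries at named tiles, 5 held a library that stood apart from the others of its group by Dixon's criterion, which chance meets in about 1 in 20 groups. At chr6:104934001-104935000, a gain tile just inside the threshold, week 1 replicate 2 had 84.0% and the others 96.1% to 97.7%. At chr12:35158001-35159000 day 1 replicate 5 had 74.3% and the others 84.5% to 86.6%. At chr12:36670001-36671000 NSC replicate 2 had 44.2% and the others 39.9% to 40.5%. The remaining 2 were tiles just outside the threshold. At chr6:43014001-43015000 NSC replicate 1 had 79.4% and the others 65.0% to 67.0%, and at chr3:50765001-50766000 week 1 replicate 4 had 91.9% and the others 88.0% to 88.6%.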

How the results depend on the processing

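The number of gain tiles was 22 of 883 tested tiles (2.49%) when 10 reads were asked for in all 13 libraries. It was 2559 of 64549 tested tiles at 5 reads, of which 451 were among the 604, and 117 of 2866 at 20 reads, of which 101 were. It was 192 with at least 5 cytosines per tile, 390 with a difference of 25 points, and 228 with 10 reads in all libraries but day 1 replicate 2, an alternative chosen after seeing the data. As a share of tested tiles the counts at 5, 10 and 20 reads were 3.96%, 4.2% and 4.08%. The other settings gave 503 to 865, and leaving out a library 281 to 637. The median NSC mean of the gain tiles was 45.3% at 5 reads, 44.7% with 5 cytosines, 49.9% in all 13 libraries, and 53.9% and 40.4% with differences of 15 and 25 points. Leaving out a library gave 46.1% to 48.0%. The median day 1 difference was 26.9 and 36.4 points with those differences, and 30.2 to 32.4 without a library. The median week 1 difference was 32.1 points at 5 reads, 25.5 and 34.1 with those differences, and 28.9 to 29.8 without a library. Calls between week 1 and day 1 stayed at 0 in all 23 alternatives run, with a lowest adjusted p of 0.0619 to 0.695. Of the values of named tiles under alternatives, 1086 moved by less than the spread between replicates or not at all, 63 by more, and 0 reversed. Leaving out a library leaves the means of the other groups as they were, unless the cytosines used change. Many of the 1086 therefore could not move, and settings in which a tile was not tested are not counted. Nothing is read from this count. No paired analysis was possible because replicate numbers follow accession order and join no samples across groups. Many tiles rest on 3 or 4 cytosines and on under 50 reads in the shallowest library, so single values below that depth are coarse.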
